A study of Mus musculus with 8 samples.

Results

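The genes of pyruvate entry and the tricarboxylic acid cycle were followed in inguinal white adipose tissue, a fat depot under the skin of the groin, with and without Lsd1 in fat cells. The module was a given list of 32 genes, matched to the tables by symbol. All 32 were found among the 23360 genes of the tables, each with a single row, and all 32 passed the filter on low values. RNA was sequenced from 4 control and 4 knockout samples, all from mice 6 weeks of age. Both groups carried the floxed Lsd1 allele, and the knockout group carried Adipoq-Cre in addition, which is driven by the promoter of the adiponectin gene and is active in adipocytes. No group analysed here carried Adipoq-Cre with an intact Lsd1 gene, so loss of Lsd1 and any action of Cre itself cannot be told apart. Not given in the sources used here are sex and strain. The labels do not state that each sample came from a separate mouse, so p-values rest on how far these samples differ among themselves, which could be technical variation.

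Pyruvate made in the cytosol enters mitochondria through a carrier built from Mpc1 and Mpc2. There the pyruvate dehydrogenase complex turns it into acetyl-CoA, under the control of kinases (Pdk genes), which switch the complex off, and phosphatases (Pdp genes), which switch it on, or pyruvate carboxylase (Pcx) turns it into oxaloacetate. Citrate synthase joins both products, and the enzymes of the cycle then oxidize citrate back to oxaloacetate and yield electrons for respiration. In white fat, citrate also leaves the mitochondria as a source of carbon for fatty acids, and the cytosolic carboxykinase Pck1 makes phosphoenolpyruvate for glyceroneogenesis, which supplies the glycerol backbone of triglycerides.

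Promoter sequences from RefSeq (GRCm38.p6) were matched for 29 of the 32 genes, with 39 annotated windows from 250 bases before to 50 bases after a start site. The median GC content of the 39 windows was 61.7%, against 52.7% over 32851 promoter windows of all genes, and the median ratio of observed to expected CG pairs was 0.75 against 0.38. The windows of all genes include genes that did not pass the filter on low values, while every member passed it. Several of the 39 windows belong to Ogdh alone. Whether the contrast would hold against expressed genes only was not tested. Among the 23 genes with a single window, Pdk3 had the highest CG ratio (1.01) and Pck1 the lowest (0.30). These are the members with the smallest p-value and the most negative fold change, and the 60 bases before their start sites are shown for that contrast in composition, a feature chosen after the sequences and values were seen, with each CG pair in capitals (5′ to 3′ on the gene's strand, chrX:93832151-93832210 on the minus strand and chr2:173153013-173153072 on the plus strand).
Pdk3: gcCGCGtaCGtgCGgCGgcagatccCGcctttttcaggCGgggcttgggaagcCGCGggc
Pck1: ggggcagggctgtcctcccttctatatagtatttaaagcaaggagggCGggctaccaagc

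Pdk3 has 9 CG pairs in this stretch and Pck1 has 1. Neither gene passed the test between genotypes described below, and whether the CG ratio goes with the fold change was not tested. Of other genes with low ratios, Pck2 (0.40) had a positive fold change and Suclg2 (0.41) a negative one. Idh3g had a high ratio (0.99) and a negative fold change. A search on both strands for AAGGTCA, a site bound by estrogen-related receptors, found it in a window of 1 member, Ogdh, where it spans a start site, and in 5.38% of all 27025 genes with a window. The cAMP response element TGACGTCA, which reads the same on both strands, was found for Ogdh and Mdh2, 2 of 29 members, and in 2.03% of all genes. Neither the direct repeat bound by PPAR and RXR receptors nor the palindromic NRF1 element, both also searched on each strand, was found in the windows of these members. They were present in 0.0481% and 1.07% of all genes. The 48 bases around the cAMP response element are shown because it was the motif found in the most members, with the motif in capitals (chr11:6291526-6291573 and chr5:135778502-135778549, both on the plus strand).
Ogdh: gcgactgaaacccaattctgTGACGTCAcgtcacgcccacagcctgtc
Mdh2: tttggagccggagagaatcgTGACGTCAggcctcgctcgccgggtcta

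A match describes the sequence and is not a measured binding site. No binding or chromatin data were used here.

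The libraries held 25671837 to 32442724 recovered reads, and every value below is a scaled read count from the authors' deposited tables. Kdm1a, the gene that encodes Lsd1, ranged from 685 to 799 in controls and 547 to 581 in knockouts (limma adjusted p = 0.0498), without overlap between the groups, and it did not pass when any 1 library was left out (adjusted p from 0.0567 to 0.153). Whole tissue also holds cells in which Adipoq-Cre is not active. Adipocyte markers were present in every library. Their 9 genes summed to 397536 to 499261 in controls and 298569 to 329413 in knockouts, without overlap, and 1 of the 9, Cidec, passed the test. Fabp4 and Cfd held the largest part of these sums. The groups did not overlap for Fabp4, Cfd, Cidec and Lipe, where this held for 8.65% of all tested genes and 1.64% passed the test. They overlapped for Adipoq, Plin1, Lep, Pparg and Retn, and Retn had a positive log2 fold change (0.108). In bulk tissue, fewer cells of a type and less RNA per cell cannot be told apart. Skeletal muscle markers, 17 of 18 found, summed to 10036 to 42920 in controls, to 222045, 210264 and 128699 in knockout replicates 1, 2 and 4, and to 14778 in knockout replicate 3. None of the 17 was at 0 in any library and none passed the test. An unadjusted p under 0.05 held for 10 of them and for 14.5% of all tested genes. B cell markers overlapped between the groups (5426 to 11918 and 8617 to 12060), as did 3 macrophage genes (10617 to 13961 and 13542 to 17031) and mammary epithelial genes (96 to 147 and 122 to 588). Of the mammary list, the keratin genes Krt5 and Krt14 were at or near 0 in all libraries but knockout replicates 1 and 2.

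The genes spanned a wide range of abundance. Per kilobase of transcript, the control means of scaled reads ran from 18.8 for Me3, a mitochondrial malic enzyme, to 8508 for Pck1. Pyruvate carboxylase ranked second (6864), and its control libraries (5348 to 8795) overlapped those of Pck1 (5449 to 11379). Next came Mdh2, Pdha1, Cs and Mdh1 with control means of 4402, 4058, 4014 and 3981 per kilobase, whose control ranges all overlapped. The dedicated subunits of the cycle's core enzymes lay mostly between 1093 (fumarate hydratase, Fh1) and these values. Suclg2, which gives succinyl-CoA ligase its GTP-forming activity, was lower at 236, against 1526 for the ATP-forming subunit gene Sucla2. Of the pyruvate dehydrogenase subunits, Pdha1 (4058) and Pdhb (2190) had control ranges above those of all its kinases. The ranges of Dlat (991) and Pdhx (536) overlapped those of kinases. Among the kinases the control means per kilobase were 1037 for Pdk2, 892 for Pdk4, 389 for Pdk1 and 71.8 for Pdk3, where the ranges of Pdk2 (809 to 1403) and Pdk4 (545 to 1490.4) overlapped. The phosphatase genes Pdp1 and Pdp2 were at 59.8 and 51.8. Mpc1 was at 312 per kilobase and its carrier partner Mpc2 at 3229.6.

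**Figure D1:**
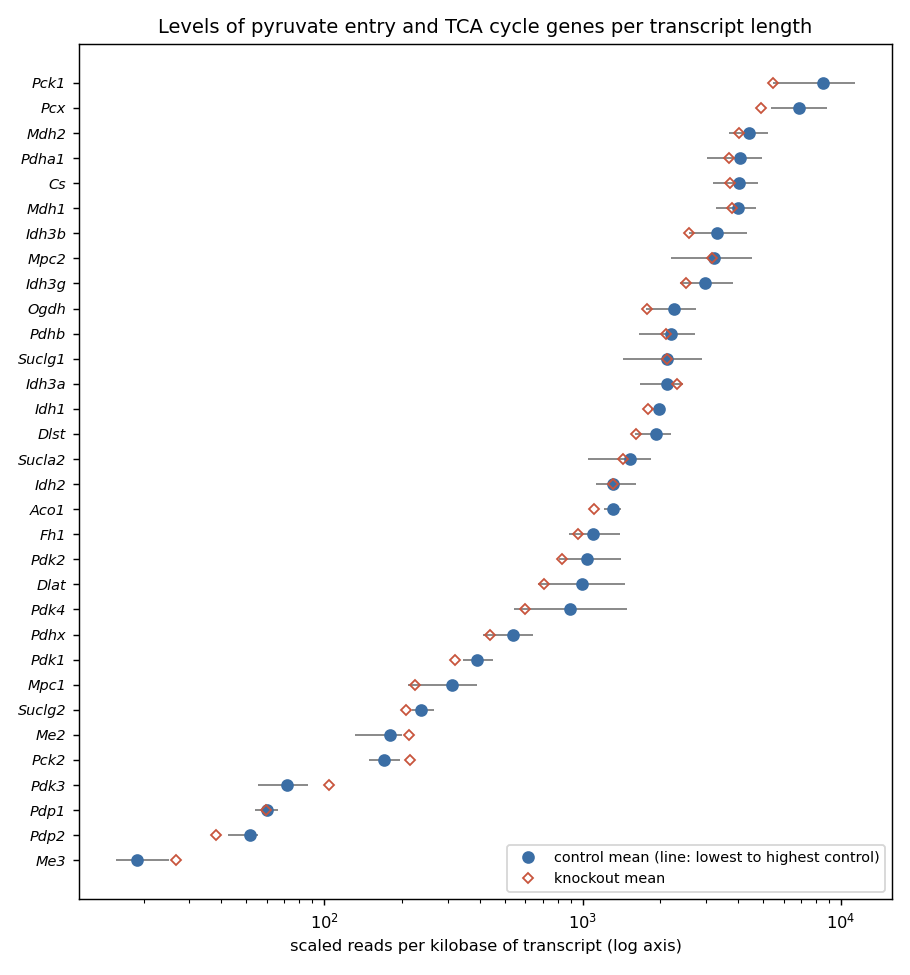
Scaled reads per kilobase of transcript (log axis) for each gene, ordered by the control mean. Filled circles are control means with a line from the lowest to the highest of the 4 control libraries, and open diamonds are knockout means. Pck1 and Pcx stand at the top in both groups and Me3 at the bottom.

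None of the 32 genes passed the test between genotypes. In the limma fit over all 14591 tested genes, 0 of 32 had an adjusted p under 0.05, where 1.64% of all tested genes did, and the smallest adjusted p was 0.112 (Pdk3). At an unadjusted p under 0.05 there were 9 of 32, or 28.1%, against 14.5% of all tested genes. Of these 9, 6 were lower (5.68% of all genes) and 3 higher (8.84%) in the knockout. The groups did not overlap for 4 of the 32, where this held for 8.65% of all tested genes. Aco1 and Suclg2 were lower in every knockout library than in any control (3.58% of all genes), and Pdk3 and Me2 higher (5.06%). The edgeR test on recovered reads passed 0 of 32 members and 1.49% of all genes, with 10 members and 15.3% of all genes at an unadjusted p under 0.05. DESeq2 passed Pdk3 alone among the members (adjusted p = 0.0150) and 5.32% of all genes.

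Fold changes were mostly small and negative. The log2 fold change (the knockout mean of log2(value + 1) minus that of the controls) was negative for 25 of the 32 genes (78.1%) and for 45.4% of all tested genes. Its median was -0.153 over the 32 genes, against 0.023 over all genes, and values ran from -0.64 (Pck1) to 0.55 (Pdk3). The median was -0.037 without control replicates 1 and 2, 0.015 with knockout replicate 3 as the only knockout library, and -0.343 without control replicates 3 and 4. The knockout libraries with high muscle markers are those left out when replicate 3 is used alone. Replicate 3 also had the highest thermogenic marker score of all libraries, and the part of either in this median was not tested. With the muscle marker score as a covariate the median was -0.077, with the adipocyte score -0.031 and with the thermogenic score -0.208. The muscle score was 12.24 to 12.65 in knockout replicates 1, 2 and 4, 9.01 in knockout replicate 3 and 8.66 to 10.35 in controls. The genotype difference in the muscle fit therefore rests largely on knockout replicate 3. This limit also holds for the single genes given with the muscle score below. The adipocyte score itself separated the genotypes, with 14.37 to 14.77 in controls and 14.09 to 14.31 in knockouts. Its list includes Cidec, which passed the test. Genotype and this score therefore cannot be told apart in that fit, and a value nearer to no change there has no clear reading. The pooled SD between libraries of a group, for the mean log2 level of the 32 genes, was 0.141.

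**Figure D2:**
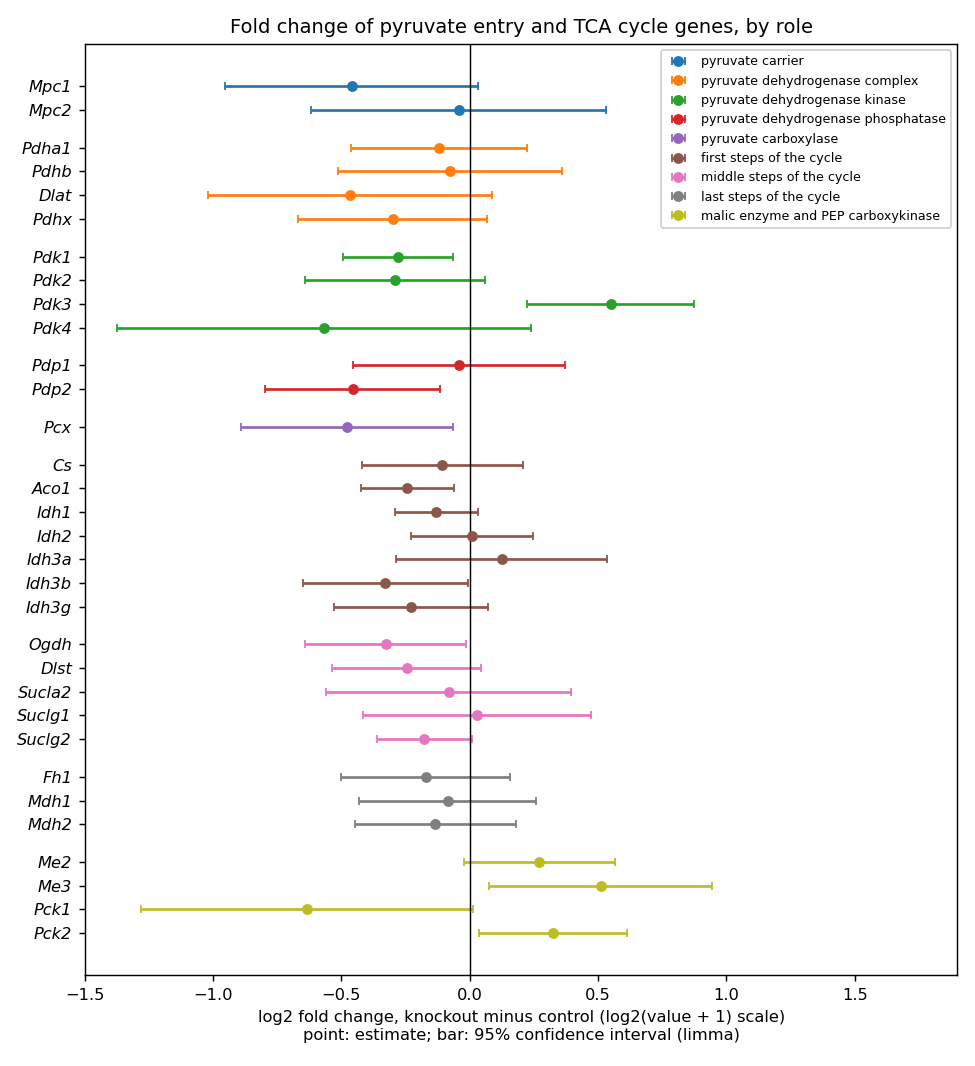
Log2 fold change of each gene (knockout minus control, points) with its 95% confidence interval from limma (bars), coloured by role. Most points lie to the left of 0 and none passed after adjustment, with Pdk3, Me3, Pck2 and Me2 farthest to the right.

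Neither gene of the mitochondrial pyruvate carrier passed the test. Mpc1 (NM_018819), the smaller pool of the carrier transcripts, is on chromosome 17 from 8283787 to 8297667 in GRCm38.p6. Controls 1 to 4 had 375, 340.1, 203 and 276 scaled reads and knockouts 1 to 4 had 163, 193, 291 and 217, the order kept for every gene below. Control replicates 3 and 4 lay within the knockout range and knockout replicates 3 and 4 within the control range, so the groups overlapped (log2 fold change -0.46, SE 0.22, limma adjusted p = 0.379). The annotated exons of Mpc1 share 480 bases with the noncoding gene 4930506C21Rik on the opposite strand, whose reads cannot be told apart without strand. Mpc2 (NM_027430, chromosome 1 from 165461260 to 165481218) was at 4637, 3386, 2262 and 2957 in controls and 2264, 3068, 4883 and 2745 in knockouts. Its highest value of all 8 was in knockout replicate 3 and its lowest in control replicate 3 (-0.04, SE 0.26, adjusted p = 0.957).

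The subunits of the pyruvate dehydrogenase complex had negative fold changes that did not pass. Pdha1, the catalytic alpha subunit that the kinases phosphorylate, was at 14099, 12398, 8602 and 11125 in controls and 10147, 11074, 11799 and 9082 in knockouts. The control range enclosed all knockout values (log2 fold change -0.12, SE 0.15, limma adjusted p = 0.768). The Pdha1 exons overlap those of Map3k15 on the opposite strand over 603 bases. Pdhb, the beta subunit, differed by -0.08 on the log2 scale and Pdhx, which binds the dihydrolipoamide dehydrogenase subunit, by -0.30 (adjusted p = 0.896 and 0.452). Dlat, the acetyltransferase core, ranged from 2702 to 5866 in controls and 2217 to 3922 in knockouts (-0.47, SE 0.25, adjusted p = 0.435). With the thermogenic marker score as a covariate, Dlat alone among the 32 genes passed (log2 fold change -0.61, adjusted p = 0.0302), where 2.32% of all genes did. With the muscle score Dlat was at -0.14 (adjusted p = 0.808), and with 1 library left out it ran from -0.64 (without control replicate 3) to -0.26 (without control replicate 1).

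The pyruvate dehydrogenase kinases had fold changes of both signs, and none passed in limma. Pdk3 (NM_145630, chromosome X from 93764616 to 93832150), the least abundant of the kinases, was at 168, 117, 183 and 139.8 in controls and 214, 204, 226 and 235 in knockouts. Every knockout library lay above every control, and the knockout libraries lay close together. The means were 152 ± 29.3 in controls and 219.6 ± 13.7 in knockouts (SD, n = 4 each), and the difference did not pass limma (log2 fold change 0.55, SE 0.15, limma adjusted p = 0.112, 95% interval 0.22 to 0.87). It was carried by 238 to 510 recovered reads per library. Across the libraries left out in turn the log2 fold change stayed between 0.43 and 0.64, with adjusted p from 0.0760 to 0.286, and it was 0.54 with the muscle score and 0.23 with the adipocyte score as a covariate.

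Pdk1, a kinase gene known as a target of hypoxia signalling, was at 2334, 1902, 1780.3 and 2059 in controls and 1587, 1658, 1822 and 1557 in knockouts. Knockout replicate 3 exceeded control replicate 3, so the groups overlapped (log2 fold change -0.28, SE 0.096, limma adjusted p = 0.215). Pdk2, a broadly expressed kinase, was at 2211, 3152, 1816 and 2137 and 2027, 1929, 1573 and 1964 in the same order. Control replicate 2 was high and knockout replicate 3 low (-0.29, SE 0.16, adjusted p = 0.445). Pdk4, the kinase induced by fasting and fatty acids through PPAR receptors, was at 2200.2, 5192, 3140.1 and 1897 in controls and 2248, 3279.9, 1153 and 1662 in knockouts. It varied 2.74-fold among controls and 2.85-fold among knockouts, more than any other member, and its 95% interval ran from -1.37 to 0.24 around a log2 fold change of -0.57 (limma adjusted p = 0.520).

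Of the phosphatases that reactivate the complex, Pdp2 was at 311, 314, 241 and 314 in controls and 256, 183, 178 and 248 in knockouts. Knockout replicates 2 and 3 lay below all controls, and replicates 1 and 4 just above control replicate 3 (log2 fold change -0.46, SE 0.15, limma adjusted p = 0.205). Pdp1 ranged from 227 to 278 in controls and 173 to 333 in knockouts (-0.04, SE 0.19, adjusted p = 0.940).

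**Figure D3:**
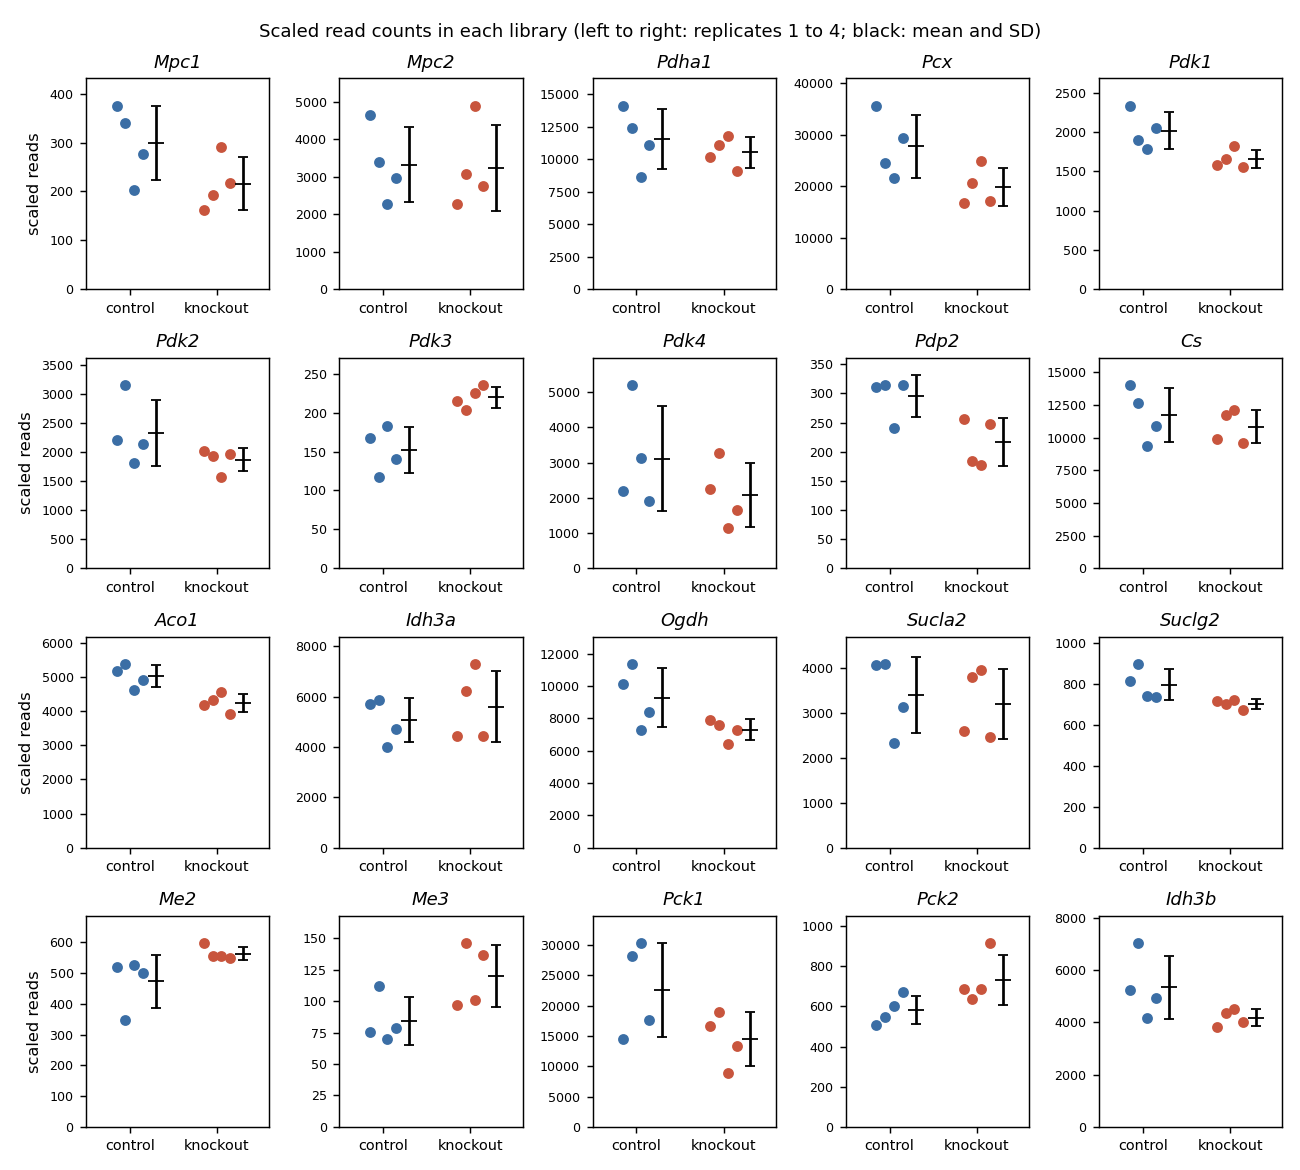
Scaled read counts (vertical axis, starting at 0) of members in each library, with replicates 1 to 4 from left to right in control (blue) and knockout (red), and the mean and SD in black. Groups separate without overlap for Pdk3, Me2, Aco1 and Suclg2, and they overlap in the other panels.

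Pyruvate carboxylase, which refills oxaloacetate and supports lipogenesis in fat cells, was among the most abundant members. Pcx (NM_008797, chromosome 19 from 4510472 to 4621752) was at 35567, 24489, 21626 and 29342 in controls and 16805, 20659, 24812 and 17071 in knockouts. Knockout replicates 1, 2 and 4 lay below all controls, and knockout replicate 3 lay between control replicates 2 and 4. The means were 27756 ± 6104 in controls and 19837 ± 3754 in knockouts (SD, n = 4 each) for a log2 fold change of -0.48, SE 0.18, adjusted p = 0.275 in limma and a 95% interval of -0.89 to -0.06. The log2 fold change of Pcx was -0.56 with the thermogenic score (adjusted p = 0.0768), -0.55 with the adipocyte score (adjusted p = 0.481) and, with the muscle score, -0.22 (adjusted p = 0.573).

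Pck1 and Pck2 catalyse the same step, from oxaloacetate to phosphoenolpyruvate, in the cytosol and in mitochondria. Pck1 (NM_011044, chromosome 2 from 173153073 to 173159274) was at 14499, 28188, 30280.2 and 17598 in controls and 16676, 19022, 8864 and 13309 in knockouts. Control replicates 1 and 4 lay inside the knockout range, and knockout replicates 3 and 4 lay below all controls (log2 fold change -0.64, SE 0.29, limma adjusted p = 0.355, 95% interval -1.28 to 0.01). With the muscle score as a covariate the log2 fold change of Pck1 was -1.15 (adjusted p = 0.0692), the smallest adjusted p of the 32 genes in that fit, and knockout replicate 3 alone gave -1.29. Pck2 was at 506, 547, 601 and 669.9 in controls and 685, 636, 689 and 914 in knockouts. Knockout replicates 1, 3 and 4 lay above all controls, and replicate 2 did not (0.32, SE 0.13, adjusted p = 0.290). The Pck2 exons overlap the antisense gene Gm10876 over 53 bases.

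The mitochondrial malic enzymes, which turn malate into pyruvate, had positive fold changes. Me2 was at 521, 346, 527 and 499 in controls and 597, 556, 555 and 549 in knockouts. All knockout values exceeded all controls, and control replicate 2 was far below the rest (log2 fold change 0.27, SE 0.13, limma adjusted p = 0.390). Me3, the rarest member, was at 75.7, 112, 70.02 and 78.9 and 97.1, 146, 101 and 137 in the same order. Control replicate 2 exceeded knockout replicates 1 and 3 (0.51, SE 0.19, adjusted p = 0.270). Its counts were 143 to 274 recovered reads per library, and its exons overlap the antisense gene A230065N10Rik over 569 bases.

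In the first steps of the cycle, citrate synthase differed little beside its spread. Cs, whose enzyme condenses acetyl-CoA with oxaloacetate, was at 14023, 12685, 9353 and 10919 in controls and 9895, 11749.8, 12097 and 9615 in knockouts. The knockout values lay within the control range (log2 fold change -0.11, SE 0.14, limma adjusted p = 0.777, 95% interval -0.42 to 0.21). Aco1 (NM_007386, chromosome 4 from 40143265 to 40199009), the cytosolic aconitase that doubles as an iron-responsive RNA-binding protein, was at 5189.7, 5381, 4623 and 4934 in controls and 4172, 4342, 4565 and 3927 in knockouts. Every knockout library lay below every control, by a gap smaller than the spread within either group, with a change of -15.5% between the means (log2 fold change -0.24, SE 0.081, limma adjusted p = 0.203). With the muscle score as a covariate its log2 fold change was -0.18, and without control replicates 1 and 2 it was -0.17.

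The isocitrate dehydrogenases, which release the first carbon dioxide, had fold changes of both signs, and none passed. Idh3a, the catalytic subunit of the NAD-linked enzyme, was at 5711, 5876, 4007 and 4716 in controls and 4436, 6225, 7280.0 and 4451 in knockouts. Its 2 highest values were in knockout replicates 2 and 3, and the others overlapped (log2 fold change 0.12, SE 0.18, limma adjusted p = 0.805). Idh3b, a partner subunit of the same enzyme, was at 5247, 7023, 4174 and 4924 and 3839, 4366, 4515 and 4017 in the same order. Control replicate 2 was the highest, and control replicate 3 lay inside the knockout range (-0.33, SE 0.14, adjusted p = 0.332). Idh3b also abuts Nop56 on the opposite strand, with 5 shared exon bases. The regulatory subunit Idh3g had a log2 fold change of -0.23 (adjusted p = 0.485). The NADP-linked enzymes of the cytosol (Idh1) and mitochondria (Idh2) differed on the log2 scale by -0.13 and 0.0082 (adjusted p = 0.460 and 0.980).

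The middle of the cycle converts 2-oxoglutarate to succinate. Ogdh, the dehydrogenase whose promoter holds the cAMP response element shown above, was at 10150.5, 11351, 7269 and 8369 in controls and 7886, 7609, 6439 and 7305 in knockouts. Control replicates 1, 2 and 4 exceeded all knockouts, and control replicate 3 did not (log2 fold change -0.33, SE 0.14, limma adjusted p = 0.326). Dlst, the succinyltransferase core of the same complex, had a log2 fold change of -0.25 (adjusted p = 0.432). Sucla2 was at 4067, 4083, 2329.7 and 3123 in controls and 2603, 3801, 3947 and 2463 in knockouts, with low and high libraries in both groups (-0.08, SE 0.21, adjusted p = 0.900). Suclg2 was at 814, 894, 738 and 733 and 714, 699.8, 719.7 and 669.5 in the same order. Its knockout libraries lay close together just under the lowest control (-0.18, SE 0.083, adjusted p = 0.366). The shared alpha subunit gene Suclg1 ranged from 2178 to 4416 in controls and 2822 to 3989 in knockouts (0.03, SE 0.20, adjusted p = 0.964).

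The last steps, from fumarate to oxaloacetate, had small negative fold changes. They were -0.17 for Fh1, -0.09 for the cytosolic malate dehydrogenase Mdh1 and -0.13 for the mitochondrial Mdh2, with limma adjusted p of 0.644, 0.843 and 0.711. Mdh2, the other gene with the cAMP response element, ranged from 5348 to 7597 in controls and 4814 to 6966 in knockouts. The exons of Mdh1 overlap those of Wdpcp on the opposite strand over 52 bases.

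Ratios of paired genes within a library do not depend on the library's scaling factor, and 6 were compared. The ratio of Mpc1 to Mpc2 was 0.0808, 0.100, 0.0896 and 0.0935 for controls 1 to 4 and 0.0720, 0.0628, 0.0596 and 0.0789 for knockouts 1 to 4. All knockout ratios lay below all control ratios, with means of 0.0911 ± 0.00820 and 0.0683 ± 0.00880 (SD, n = 4 each). The log2 difference was -0.42, and a two-sided exact permutation test gave p = 0.0286, the lowest possible with 4 against 4, or 0.171 after Benjamini-Hochberg adjustment over the 6 ratios. With 1 of the libraries left out the log2 difference ran from -0.491 to -0.356, and without control replicates 1 and 2 it was -0.431. These are read counts not divided by length, so the ratio is comparable between libraries but is not a ratio of molecules, and the antisense overlap of Mpc1 enters it.

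The ratio of cytosolic Pck1 to mitochondrial Pck2 was 28.6, 51.5, 50.4 and 26.3 for controls 1 to 4 and 24.3, 29.9, 12.9 and 14.6 for knockouts 1 to 4. Knockout replicates 1, 3 and 4 lay below all controls, replicate 1 only slightly, and replicate 2 overlapped them (log2 difference -0.96, exact two-sided permutation p = 0.0857, adjusted 0.257). The other ratios overlapped between the groups. Their log2 differences were -0.14 for Idh1 to Idh2, -0.28 for Pdk4 to Pdk2, 0.096 for Sucla2 to Suclg2 and 0.047 for Mdh1 to Mdh2 (exact permutation p from 0.314 to 0.657).

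**Figure D4:**
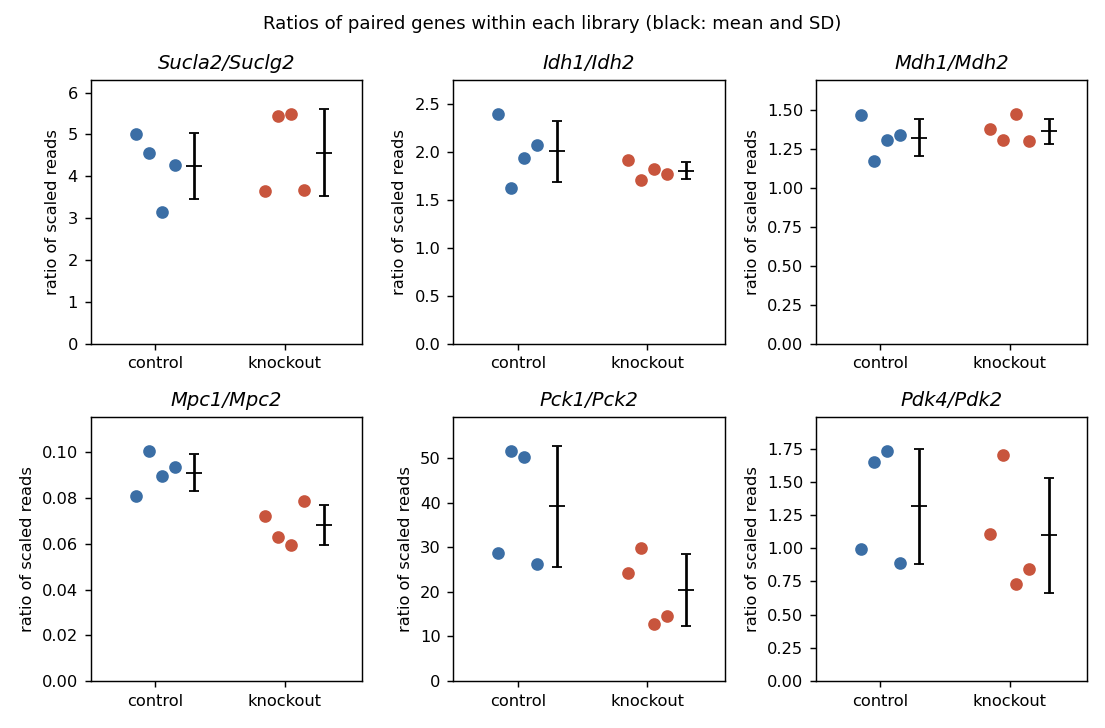
Ratio of the scaled reads of paired genes in each library (vertical axis, starting at 0), for control (blue) and knockout (red) replicates 1 to 4 from left to right, with mean and SD in black. The Mpc1 to Mpc2 ratios of the 4 knockouts lie below those of the 4 controls, and the other ratios overlap.

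Much of the variation ran between libraries of the same genotype. Of the 32 genes, 24 had their lowest control value in control replicate 3, and 26 had their highest in control replicate 1 (11 genes) or 2 (15 genes). Among the knockouts, 21 genes were highest in replicate 3, and 23 were lowest in replicate 1 (12 genes) or 4 (11 genes). How often other tested genes were highest or lowest in these libraries is not given here, so the counts do not set this module apart. The median deviation of the 32 genes from their own means over all libraries, on the log2 scale, was 0.167, 0.218, -0.175 and 0 for controls 1 to 4 and -0.155, -0.029, 0.089 and -0.19 for knockouts 1 to 4. Control replicates 1 and 2 were thus the high libraries of their group, and their sample titles carry the numbers 518 and 517 where the others run from 356 to 361. What those numbers mean is not stated, and among libraries numbered 356 to 361 alone 17 of the 32 fold changes were negative, with a median of -0.037 and 0 of them past the threshold.

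Thermogenic adipocyte markers followed the library levels of the cycle genes in part. Their mean log2 level (Ucp1, Cidea, Elovl3, Cox7a1, Cox8b and Otop1) was 10.13, 9.84, 8.28 and 8.76 for controls 1 to 4 and 8.96, 9.79, 10.45 and 8.95 for knockouts 1 to 4. The highest control libraries were again replicates 1 and 2 and the highest knockout library replicate 3. Knockout replicate 2 had a score near that of control replicate 2, but the median deviation of the cycle genes was -0.029 against 0.218. In knockout replicate 3, 21 of the cycle genes were at their highest knockout value and 6 at their lowest. Ucp1, the uncoupling protein of brown and beige fat, was at 4732 scaled reads in knockout replicate 3 and 167 in replicate 1. Cox7a1, unlike the others, was highest among knockouts in replicate 2. Log2 fold changes were negative for Ucp1 and Elovl3 and positive for Cidea, Cox7a1, Cox8b and Otop1. Otop1 was higher in every knockout (758 to 1860) than in any control (241 to 638), without passing (limma adjusted p = 0.108). The skeletal muscle score was 12.65, 12.43 and 12.24 in knockout replicates 1, 2 and 4 and between 8.66 and 10.35 in the other libraries, so knockout replicate 3 also had the lowest muscle level of its group. The part of either cell type in the levels of the cycle genes was not tested.

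**Figure D5:**
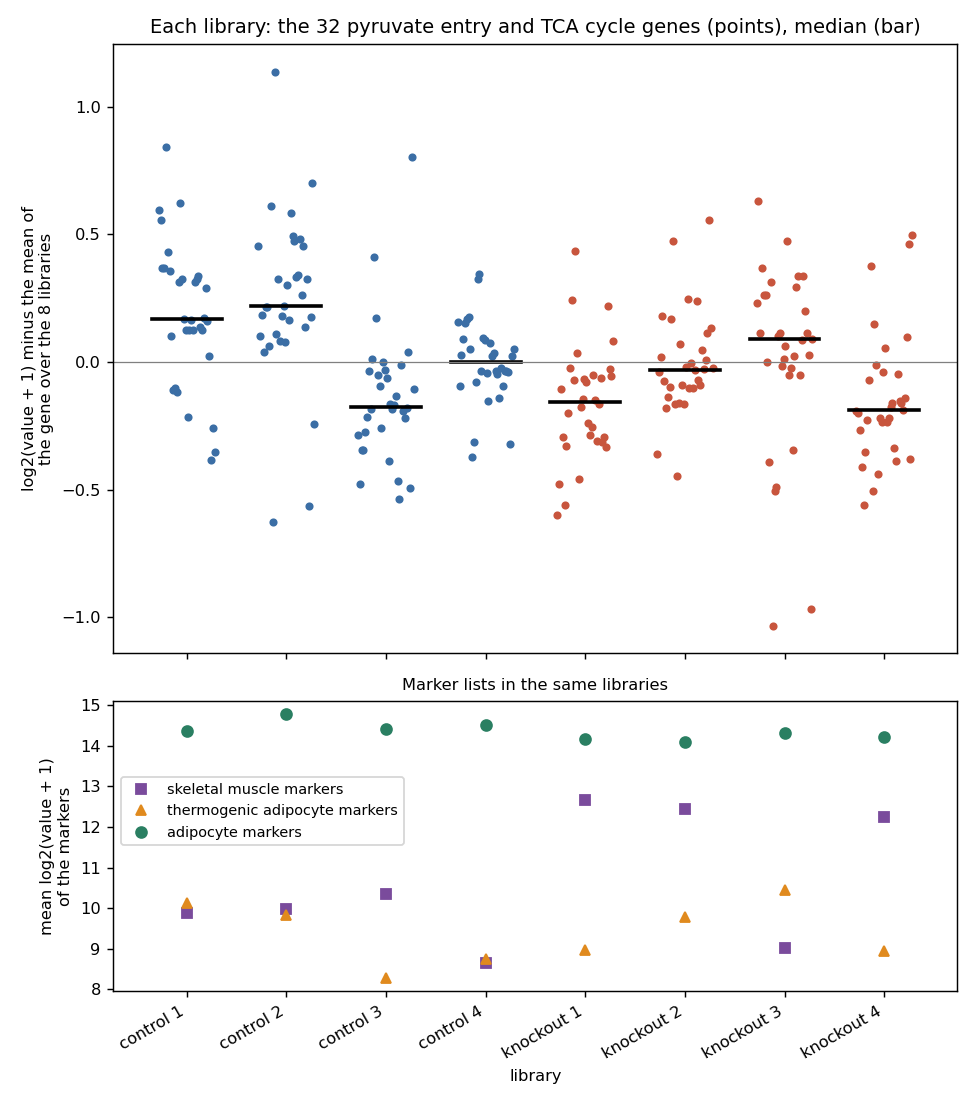
Top, the 32 genes in each library as log2(value + 1) minus the gene's mean over the 8 libraries (points), with the median as a bar, for control (blue) and knockout (red). Bottom, the mean log2 level of skeletal muscle, thermogenic and general adipocyte markers in the same libraries. The medians are highest in control replicates 1 and 2 and lowest in knockout replicate 4 and control replicate 3.

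Other genes of the pathway and its connections were read from a second list of 33, of which 32 were in the tables and 31 were tested. Of these 31, 2 passed as higher (1.28% of all genes) and 1 as lower (0.356%), and the median log2 fold change was -0.134. The list was chosen with earlier results of these data known, so these counts do not show whether it differs from other genes. Both higher genes were aspartate aminotransferases, which exchange amino groups between oxaloacetate and glutamate and belong to the malate-aspartate shuttle. The mitochondrial Got2 was at 507, 432, 540.1 and 484 in controls and 1030.2, 1119, 1208 and 1109.9 in knockouts (log2 fold change 1.19, SE 0.089, limma adjusted p = 0.000327). The cytosolic Got1 was at 333, 310.1, 332 and 299 and 482, 583, 579 and 578 in the same order (0.80, SE 0.091, adjusted p = 0.00246). The groups did not overlap for either gene, and both calls held without any 1 library. Got1 did not pass with the adipocyte score as a covariate (0.76, adjusted p = 0.124), a fit in which 20 genes passed in all. Because that score separated the genotypes, genotype and score cannot be told apart in it. The lower gene was Ldhd, the mitochondrial D-lactate dehydrogenase, at 960.0, 1066, 659 and 875 in controls and 561, 475, 474 and 525 in knockouts (-0.79, SE 0.14, adjusted p = 0.0243). Ldhd no longer passed when any of control replicates 1, 2 and 4 or knockout replicates 2 and 4 was dropped (adjusted p of 0.0769, 0.0544, 0.0743, 0.0956 and 0.0789), when the first pair of controls was dropped together (0.171) or with the muscle (0.06) or adipocyte (0.343) score.

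Ldhb, the lactate dehydrogenase subunit of oxidative tissues, had an unadjusted limma p under 0.01 without passing. It was at 949, 1090.0, 627 and 774 in controls and 1111, 1356, 1617 and 1341 in knockouts (log2 fold change 0.67, SE 0.17, limma adjusted p = 0.102). Every knockout exceeded every control, with knockout replicate 1 only just above control replicate 2. Ldhb passed in DESeq2 (adjusted p = 0.0273) and with the thermogenic score in limma (0.0213), and it did not pass in edgeR (0.148). The 4 subunits of succinate dehydrogenase, also on the list, did not pass.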

How the data were processed

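RNA from inguinal white fat of 4 control and 4 knockout samples was analysed. Per the series' design text, the authors aligned reads with TopHat version 2 to mm10, counted them with HOMER and sought changed genes with edgeR and DESeq version 1.8.3. Not given in the sources used here are the annotation, the strandedness and the scaling. The deposited signal was read counts times 1 factor per library: 99.85 to 100% of values above 0 were whole multiples of a step of 0.4423 to 0.5453 within 0.02, and 25671837 to 32442724 reads per library were recovered. A step may stand for 1 end of a read pair. Pairs of libraries within a group differed by more than counting noise, with 26.6 to 143 as chi-square per degree of freedom.

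Accessions were matched to symbols with RefSeq (22527) and GENCODE M21 (124), and 721 rows, 1.64% of reads, stayed unmatched. Of 12 symbols with several rows, the row with the highest total was kept. The 1 row without an accession held 0 in every library. Genes reaching 10 in 4 or more libraries were tested with limma 3.58.1 (R 4.3.3, mean-variance trend) on log2(value + 1), with Benjamini-Hochberg adjustment over 14591 genes and a threshold of 0.05. Tests on recovered reads used edgeR 4.0.16 (quasi-likelihood) and DESeq2 1.42.0. On simulated reads limma recovered 30% of genes changed 1.5-fold and 72.3% of those changed 2-fold, with 5 false among 148 calls in 14506 genes. The simulation drew each gene independently, without shifts shared by many genes of a library. These rates therefore need not hold for the real libraries. Log2 levels of marker lists were averaged to scores, and lengths come from GENCODE M21.

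The members and lists were chosen with earlier results of these data known. Values in every library are given for members with an unadjusted p under 0.05 and for a set of genes named by role. Me2 was added after its values were seen. Genes of the second list are named if they passed or had an unadjusted p under 0.01, and 1 of them is not reported here. Alternatives were other pseudocounts, filters, scalings, tools, covariates and sets of libraries.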

Additional observations from a re-analysis of the deposited data

Results flagged for a closer look

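Libraries far from the other 3 of their group were looked for in 88 groups of 4, covering each member, the 6 ratios, Kdm1a and 5 genes of the second list, and 4 were found. The limit is set to flag about 1 in 20 groups of independent, normally distributed values. These groups share libraries, and the ratios reuse member values, so 4 of 88 gives no verdict on chance. For Pdp2, control replicate 3 was the lowest at 241 scaled reads, while the other controls lay within a narrow range. For Me2, control replicate 2 was the lowest control at 346 and knockout replicate 1 the highest knockout at 597. For Got1, knockout replicate 1 was the lowest knockout at 482, still above all controls.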

How the results depend on the processing

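Other pseudocounts, filters and scalings left the number of members past the threshold at 0, and the median of their fold changes stayed negative. DESeq2 passed 776 genes, 1 member and 5 genes of the second list. Without control replicates 1 and 2, 88 genes passed. With the thermogenic score 1 member (Dlat) and 5 genes of the second list passed, and with the adipocyte score 20 genes and 1 gene of the second list. In 2 alternatives added after the data were seen, knockout replicate 3 alone gave 17 genes, 0 of the second list and a member median of 0.015, and leaving out control replicates 3 and 4 gave a median of -0.343. In the former, the lone sample is assumed to vary like the controls. Leaving out each library in turn gave 90 to 463 genes, 2 to 5 genes of the second list, and log2 differences of -0.008 to 0.099 for Mdh1 to Mdh2 and -0.04 to 0.194 for Sucla2 to Suclg2. The count was lowest without knockout replicate 4 and highest without knockout replicate 3. Kdm1a did not pass in any of these (adjusted p from 0.0567 to 0.153), nor with a pseudocount of 0.5 (0.0503), no filter (0.0582), a minimum of 50 (0.0501), equal totals (0.0705), the muscle (0.0698) or adipocyte (0.235) score, or without control replicates 1 and 2 (0.115) or 3 and 4 (0.176) or with knockout replicate 3 alone (0.202). It passed with a pseudocount of 5, TMM, RLE, the thermogenic score, edgeR (0.0239) and DESeq2 (1.83e-05).

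Log2 fold changes of some members changed sign, among them the larger ones of Mpc1 and Dlat. They were -0.0096 for Idh2 with TMM, -0.014 for Idh2 with RLE, -0.024 for Idh2, -0.031 for Suclg1 with edgeR and -0.027 for Idh2, -0.034 for Suclg1 with DESeq2. Without control replicates 1 and 2 they were 0.26 for Mpc2, 0.1 for Pdha1, 0.089 for Pdhb, 0.094 for Cs, 0.22 for Sucla2, 0.057 for Fh1, 0.083 for Mdh1, 0.042 for Mdh2. The muscle score gave 0.38 for Mpc2, 0.0044 for Pdha1, 0.21 for Pdhb, 0.14 for Sucla2, 0.15 for Mdh1, 0.029 for Mdh2. The thermogenic score gave 0.032 for Pdp1, -0.0019 for Idh2, -0.075 for Suclg1. The adipocyte score gave 0.19 for Mpc2, 0.032 for Pdk2, 0.068 for Idh3b, 0.11 for Idh3g, 0.17 for Sucla2, 0.16 for Fh1, 0.085 for Mdh1, 0.16 for Mdh2, -0.14 for Me2. Knockout replicate 3 alone gave 0.0016 for Mpc1, 0.61 for Mpc2, 0.053 for Pdha1, 0.33 for Pdhb, 0.028 for Dlat, 0.11 for Pdhx, 0.059 for Cs, 0.25 for Sucla2, 0.00055 for Fh1, 0.29 for Mdh1, 0.13 for Mdh2. Without control replicates 3 and 4 they were -0.04 for Idh2, -0.083 for Idh3a, -0.29 for Suclg1. With 1 library left out, the ranges were -0.062 to 0.11 for Idh2, -0.013 to 0.22 for Idh3a, -0.26 to 0.13 for Mpc2, -0.21 to 0.047 for Pdhb, -0.19 to 0.12 for Pdp1, -0.25 to 0.033 for Sucla2, -0.15 to 0.19 for Suclg1. The cause was not tested. No paired analysis was made because the labels used here give no pairing of samples between the genotypes.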

Other observations

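Genes that carry citrate carbon toward fatty acids varied widely between libraries of a genotype, and none of the 3 described here passed the test. They were chosen after their values were seen. Acly, which splits cytosolic citrate into acetyl-CoA and oxaloacetate, was at 91137, 26332, 31899 and 51146 in controls and 25388, 55589, 72291 and 27452 in knockouts (log2 fold change -0.12, SE 0.44, limma adjusted p = 0.929). The cytosolic malic enzyme Me1, a source of NADPH, was at 26702, 7954, 6970.5 and 9993 in controls and 3761, 8655, 13471 and 5553 in knockouts (-0.65, SE 0.47, adjusted p = 0.573). The mitochondrial citrate carrier Slc25a1 was at 29829, 12229, 11597 and 17077 in controls and 9099, 12162, 18021 and 10167 in knockouts (-0.46, SE 0.31, adjusted p = 0.541). Control replicate 1 was the highest of all libraries for each of the 3, as it was for Pcx, and knockout replicate 3 was the highest knockout.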
